A study of Mus musculus with 10 samples.

Results

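The genes described here encode the proteasome, the barrel-shaped protease that degrades ubiquitin-tagged proteins, with its activators, its assembly chaperones and the immunoproteasome subunits. Members were all rows of the count table whose symbol begins with Psm, a letter from a to g and a digit, with at least 60 counts over the 6 RNA libraries. This gave 49 of 24385 gene symbols; 50 rows matched the pattern, and Psmb11, a thymus-restricted subunit, was left out for its low count. By textbook role the members were 7 alpha-ring and 7 constitutive beta-ring subunits of the catalytic core, 3 immunosubunits, 6 ATPases and 11 other subunits of the regulatory particle, 4 Psme activators and 7 assembly chaperones. The remainder were Psmf1, a proteasome inhibitor, Psma8, a testis-specific alpha subunit, Psme2b, a gene copy of Psme2, and Psmc3ip, whose symbol fits the pattern although it encodes a recombination cofactor and no proteasome subunit.

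The catalytic core is made of stacked alpha and beta rings, and a regulatory particle on its end binds ubiquitin, unfolds the substrate and feeds it in. In antigen-presenting cells the catalytic subunits encoded by Psmb5, Psmb6 and Psmb7 can be exchanged for those of Psmb8, Psmb9 and Psmb10, which makes the immunoproteasome. The peptides it cuts are carried by the TAP transporter to MHC class I molecules, and interferon is the best known inducer of the exchange. Psme1 and Psme2 together form the PA28 ring, an activator that caps the core in place of the regulatory particle.

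Dendritic cells were derived from marrow of female wild-type C57BL/6 mice aged 8 to 10 weeks, in a 7-day culture with GM-CSF at 20 ng/mL. The immature cells that had not attached by day 6 were treated for 24 h with 400 µg/mL AMLE (apple mango leaf extract; 3 RNA and 2 ATAC libraries) or with 0.04% DMSO (3 and 2). Per its title, the study asks about cell maturation and function after AMLE. Such cultures are mixtures of dendritic cells, macrophages and granulocyte precursors, and in bulk RNA fewer cells of a type and less RNA per cell cannot be told apart.

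Library totals ran from 26010455 to 34208286 counts in AMLE and from 28457863 to 31413578 in DMSO. The 9 dendritic cell markers summed to 10134 to 11464 CPM (counts scaled by effective library size) in AMLE and 8471 to 10950 CPM in DMSO. Of these, Flt3 (log2 2.27), Ccr7, Zbtb46 and Csf2rb rose, H2-Ab1 fell (−0.70, with overlapping groups), and 4 were not called. Over all genes tested 23.0% rose and 25.6% fell. Itgax, which encodes CD11c, was among the markers not called, at 688 CPM in AMLE and 708 CPM in DMSO. On the leading principal component, which held 75.4% of the variance over all genes tested, AMLE replicate 3 lay at 23.9 and AMLE replicates 1 and 2 at 39.8 and 48.3, against −44.1 to −32.1 for the DMSO libraries. AMLE replicate 3 was thus the treated library nearest to vehicle. Levels below are in CPM, and tests are edgeR quasi-likelihood tests with Benjamini-Hochberg adjusted p over 13075 genes, called below 0.05. Log2 fold changes are AMLE minus DMSO, with the standard error (SE) after ±.

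The proteasome genes parted into a small set that rose after AMLE and a large set that fell. Of 49 members 6 rose (12.2%; 23.0% of all genes tested rose), namely Psmb8, Psmb9, Psme1, Psme2, Psmg4 and Psmf1. In contrast 33 fell (67.3%; 25.6% of all genes tested fell), 32 of them without Psmc3ip, and 10 passed in neither direction. AMLE libraries stood wholly above DMSO libraries in 7 members (14.3%, against 28.4% of genes tested) and wholly below them in 36 (73.5%, against 31.4%). The median log2 change was −0.25 over members and −0.01 over all genes tested, whose quartiles were −0.27 and 0.28. The sizes were small: 1 called member was at least 1.5-fold higher (Psme2) and 2 at least 1.5-fold lower (Psmg1 and Psmc3ip).

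**Figure D1:**
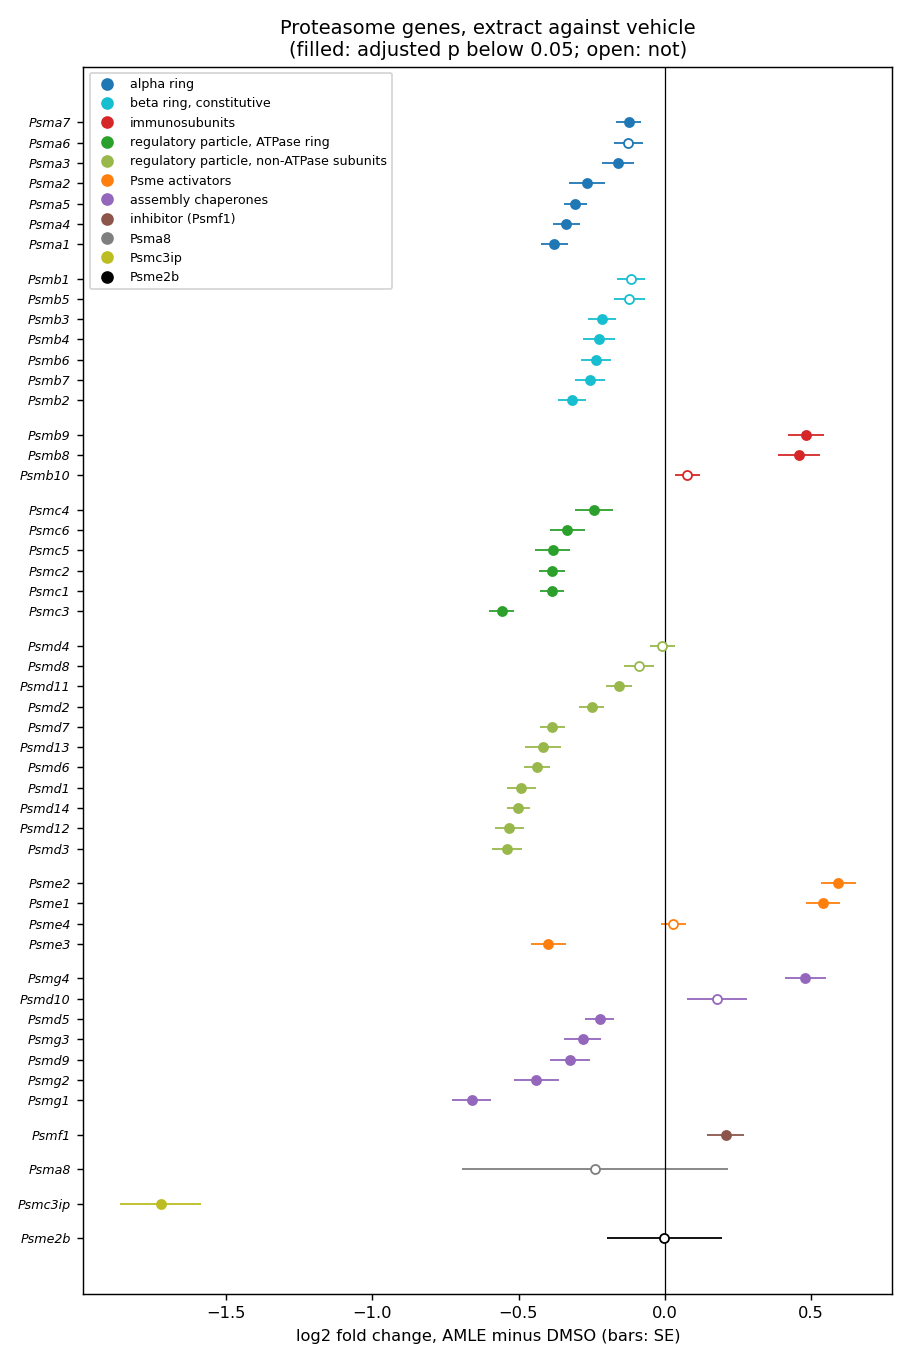
Log2 fold change (AMLE minus DMSO, with SE) of each of the 49 members, ordered by class and then by size; filled points were called at an adjusted p below 0.05. Psme2 and Psme1 stand farthest to the right at 0.59 and 0.54, the regulatory particle lies between −0.56 and −0.01, and Psmc3ip stands alone at −1.72.

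Among the immunosubunits Psmb8 and Psmb9 rose about 1.4-fold, and Psmb10 did not pass the test. Psmb8, the inducible chymotrypsin-like subunit, had 363, 388 and 329 CPM in AMLE replicates 1 to 3, against 248, 270 and 267 CPM in DMSO replicates 1 to 3. All AMLE libraries were above all DMSO libraries, with replicate 3 the lowest of the AMLE libraries. The change was 1.38-fold (log2 0.46 ± 0.07, edgeR adjusted p = 0.0018). Psmb9, which replaces the caspase-like subunit Psmb6, had 122, 125 and 115 CPM in AMLE, against 80.3, 90.4 and 88.2 CPM in DMSO. Again the groups did not overlap, and the change was 1.40-fold (log2 0.48 ± 0.06, edgeR adjusted p = 7.9e-04). Psmb10, which replaces the trypsin-like subunit Psmb7, had 79.9, 81.3 and 81.0 CPM in AMLE, against 75.4, 75.7 and 78.6 CPM in DMSO. Its AMLE libraries also lay above its DMSO libraries, but by little, with a log2 change of 0.08 ± 0.04 (edgeR adjusted p = 0.17).

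The 3 constitutive subunits that these replace stood lower in AMLE. Psmb5, the constitutive chymotrypsin-like subunit, had 71.4, 63.7 and 66.8 CPM in AMLE, against 72.5, 73.7 and 73.5 CPM in DMSO. The groups did not overlap but AMLE replicate 1 lay close to DMSO, and the change did not pass (log2 −0.12 ± 0.05, edgeR adjusted p = 0.099). Psmb6 had 128, 116 and 125 CPM in AMLE, against 142, 147 and 146 CPM in DMSO, and fell by 0.23 ± 0.05 on the log2 scale (edgeR adjusted p = 0.0086). Psmb7 had 98.8, 98.3 and 91.2 CPM in AMLE, against 112, 117 and 115 CPM in DMSO, and fell by 0.26 ± 0.05 on the log2 scale (edgeR adjusted p = 0.0050). In both genes every AMLE library was below every DMSO library.

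**Figure D2:**
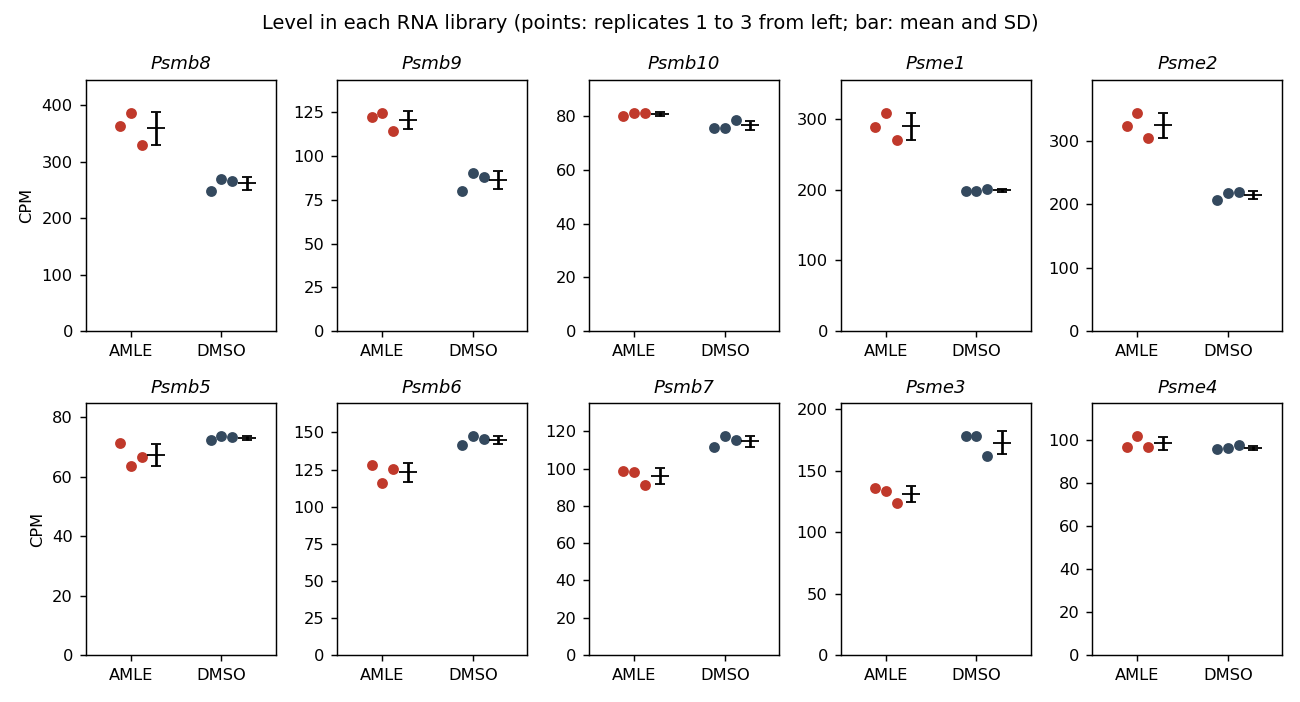
Level in CPM (linear axis from 0, scaled per gene) of the immunosubunits, the Psme activators and the constitutive catalytic subunits in each library, AMLE left and DMSO right, with mean and SD (n = 3). Psmb8, Psmb9, Psmb10, Psme1 and Psme2 are higher in all AMLE libraries, and Psmb5, Psmb6, Psmb7 and Psme3 lower. The separation is small in Psmb10 and Psmb5, and Psme4 overlaps.

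To set each immunosubunit against the subunit it replaces, the ratio of their counts was taken within each library. This ratio does not depend on library scaling, although its absolute size depends on the lengths of both transcripts and only its difference between groups is read here. For each Psmb5 count there were 5.08, 6.08 and 4.93 Psmb8 counts in AMLE, against 3.43, 3.67 and 3.63 in DMSO. The log2 ratio averaged 2.42 ± 0.16 in AMLE and 1.84 ± 0.05 in DMSO (SD, n = 3 each), a difference of 0.58. For Psmb9 over Psmb6 the counts stood at 0.955, 1.08 and 0.913 to 1 in AMLE, against 0.567, 0.614 and 0.605 in DMSO, a log2 difference of 0.72. For Psmb10 over Psmb7 they stood at 0.809, 0.827 and 0.888 to 1 in AMLE, against 0.676, 0.644 and 0.682 in DMSO, a log2 difference of 0.33. All 3 ratios were higher in every AMLE library than in any DMSO library, with gaps of 0.43, 0.57 and 0.25 on the log2 scale between the nearest libraries. The two-sided exact permutation test gave p = 0.10 for each pair (also 0.10 adjusted over the 3 pairs), which is the smallest p that 3 against 3 libraries allow.

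**Figure D3:**
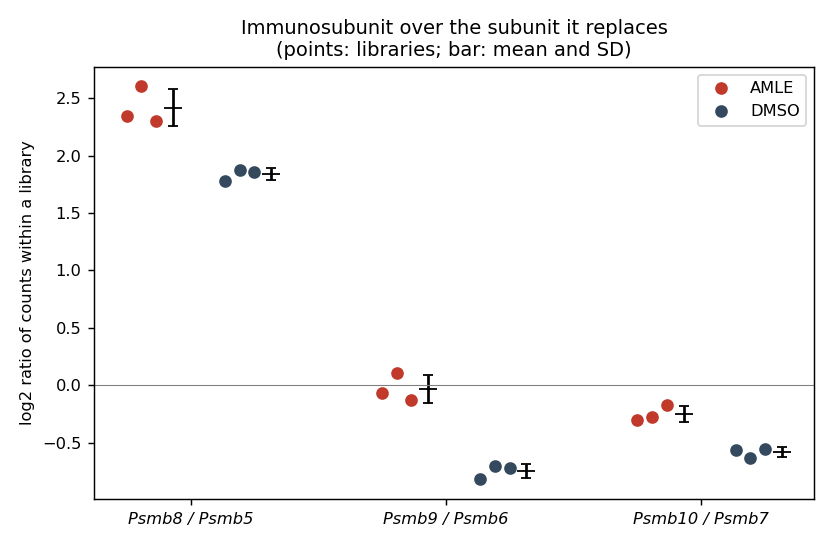
Log2 ratio of counts of each immunosubunit to the constitutive subunit it replaces, per library, with mean and SD (n = 3; AMLE left, DMSO right of each pair). AMLE and DMSO libraries are separate in all 3 pairs, by 0.58, 0.72 and 0.33 between the means.

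The Psme activators moved in both directions, with 2 of 4 higher, 1 lower and 1 not called. Over all genes tested 23.0% rose and 25.6% fell. Psme1, the alpha subunit of PA28, had 289, 309 and 271 CPM in AMLE, against 198, 198 and 201 CPM in DMSO. Psme2, its beta subunit, had 324, 345 and 306 CPM in AMLE, against 208, 218 and 220 CPM in DMSO. Both partners were higher in every AMLE library, with replicate 2 highest and replicate 3 lowest in each. Psme1 rose 1.45-fold (log2 0.54 ± 0.06, edgeR adjusted p = 4.0e-04) and Psme2 rose 1.51-fold (log2 0.59 ± 0.06, edgeR adjusted p = 2.9e-04).

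Psme3, which forms the related nuclear activator PA28 gamma, had 136, 133 and 124 CPM in AMLE, against 178, 178 and 162 CPM in DMSO. It fell 1.32-fold (log2 −0.40 ± 0.06, edgeR adjusted p = 0.0017) with no overlap of the groups. Psme4, which encodes the activator PA200, had 96.7, 102 and 97.0 CPM in AMLE, against 95.7, 96.4 and 97.5 CPM in DMSO, with overlapping groups (log2 0.03 ± 0.04, edgeR adjusted p = 0.59). Psme2b averaged 4.36 ± 1.13 CPM in AMLE and 4.35 ± 0.446 CPM in DMSO (SD, n = 3 each) and was not called. It is a copy of Psme2, so reads of the shared sequence could be assigned to either.

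The promoters of both PA28 genes, of Psmb8 and Psmb9, and of the constitutive partners Psmb5 and Psmb6 are shown. Both PA28 genes rose, and the ratios of the other partners did not overlap between the groups. The ratio of Psmb10 to Psmb7 did not overlap either, but that pair is not shown. Psmb7 has no listed start, and the Psmb10 promoter held none of the motifs named below. Each promoter shown runs from 250 bases before to 49 after the RefSeq start (build GRCm38.p6, the coordinates of mm10), on the strand of the gene. In the first 4, capitals mark matches to GAAANNGAA (the core of interferon regulatory factor sites), TTCNNNGAA (the gamma-activated site of STAT factors) or the kappaB consensus of NF-kB. In the last 2, capitals mark TGACNNNGC, the core of the antioxidant response element read by NRF1 and NRF2, or CCAAT, the NF-Y box.
Psmb8, chr17:34197945-34198244, plus strand: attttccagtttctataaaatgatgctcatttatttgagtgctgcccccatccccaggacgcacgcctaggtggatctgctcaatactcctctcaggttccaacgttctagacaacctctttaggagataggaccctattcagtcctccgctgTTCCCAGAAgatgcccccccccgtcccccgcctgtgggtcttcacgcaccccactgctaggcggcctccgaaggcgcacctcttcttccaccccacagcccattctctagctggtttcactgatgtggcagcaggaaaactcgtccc
Psmb9, chr17:34187281-34187580, minus strand: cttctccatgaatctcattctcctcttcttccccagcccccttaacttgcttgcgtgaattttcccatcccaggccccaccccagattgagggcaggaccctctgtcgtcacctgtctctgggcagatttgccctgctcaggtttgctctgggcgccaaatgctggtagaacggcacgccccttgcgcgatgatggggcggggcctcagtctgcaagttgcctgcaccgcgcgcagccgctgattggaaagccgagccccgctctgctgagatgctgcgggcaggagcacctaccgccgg
Psme1, chr14:55578244-55578543, plus strand: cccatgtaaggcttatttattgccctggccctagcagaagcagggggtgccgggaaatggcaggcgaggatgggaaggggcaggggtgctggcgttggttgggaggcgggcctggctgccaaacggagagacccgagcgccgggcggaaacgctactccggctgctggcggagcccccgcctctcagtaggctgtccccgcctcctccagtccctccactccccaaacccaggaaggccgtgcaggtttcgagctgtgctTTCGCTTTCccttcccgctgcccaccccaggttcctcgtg
Psme2, chr14:55591052-55591351, minus strand: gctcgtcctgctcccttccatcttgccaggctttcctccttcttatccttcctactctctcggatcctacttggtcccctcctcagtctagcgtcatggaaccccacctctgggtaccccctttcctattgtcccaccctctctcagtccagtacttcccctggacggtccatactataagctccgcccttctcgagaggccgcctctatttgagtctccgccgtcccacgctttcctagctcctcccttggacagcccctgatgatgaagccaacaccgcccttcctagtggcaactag
Psmb5, chr14:54617946-54618245, minus strand: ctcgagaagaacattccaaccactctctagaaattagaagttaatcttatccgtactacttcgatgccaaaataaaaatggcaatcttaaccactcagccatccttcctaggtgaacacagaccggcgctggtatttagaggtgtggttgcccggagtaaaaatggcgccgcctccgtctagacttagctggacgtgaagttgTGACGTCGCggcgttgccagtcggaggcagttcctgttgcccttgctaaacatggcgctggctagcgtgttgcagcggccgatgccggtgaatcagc
Psmb6, chr11:70525107-70525406, plus strand: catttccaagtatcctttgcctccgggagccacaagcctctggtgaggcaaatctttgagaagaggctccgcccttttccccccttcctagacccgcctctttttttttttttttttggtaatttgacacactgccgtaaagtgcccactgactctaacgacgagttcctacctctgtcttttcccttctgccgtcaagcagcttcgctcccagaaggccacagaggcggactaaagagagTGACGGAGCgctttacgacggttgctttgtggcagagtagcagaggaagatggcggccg

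Counted from the start base as 0, the Psmb8 match to TTCNNNGAA lay at −97 to −89 and the Psme1 match to GAAANNGAA at 10 to 18, on the opposite strand. The TGACNNNGC matches lay at −47 to −39 in Psmb5 and at −9 to −1 in Psmb6. Psmb9 and the Psme2 window shown held none of the 3 motifs marked in them, and Psmb9 held a CCAAT box, not capitalised, at −8 to −4 on the opposite strand. All motifs were searched on both strands, where TTCNNNGAA reads the same, and no 2 of the capitals overlap. Over 44 promoters of the 41 members listed in the RefSeq table, GAAANNGAA stood in 7 (15.9%, against 8.56% of all 32851 promoters) and TTCNNNGAA in 3 (6.82%, against 8.30%). TGACNNNGC stood in 6 (13.6%, against 12.4%), CCAAT in 14 (31.8%, against 37.4%) and the kappaB consensus in 1 (2.27%, against 4.51%). GAAANNGAA was found at Psmg4 and Psme1, which rose, and also at Psmb3, Psmb4, Psmc2 and Psmd9, which fell, and at Psmd4, which was not called.

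The alpha ring, which gates entry to the core and carries no catalytic site, was lower throughout, with a median log2 change of −0.27. Of its 7 subunits 6 were called lower and none higher, where 25.6% of all genes tested fell and 23.0% rose. Psma1 had 134, 125 and 129 CPM in AMLE, against 165, 166 and 173 CPM in DMSO, and fell (log2 −0.38 ± 0.05, edgeR adjusted p = 7.0e-04). Psma4 had 102, 104 and 99.3 CPM in AMLE, against 127, 125 and 133 CPM in DMSO, a change of −0.34 ± 0.05 on the log2 scale (edgeR adjusted p = 0.0010). In all 7 subunits every AMLE library was below every DMSO library, against 31.4% of all genes tested. The log2 changes ran from −0.38 to −0.12. Psma6, at −0.12 ± 0.05, was not called (edgeR adjusted p = 0.072), and Psma7, at −0.12 ± 0.04, only just was (0.044). The call of Psma7 was lost in 10 of 12 alternative settings and that of Psma3 (−0.16) in 8.

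The constitutive beta ring, which holds the catalytic sites, gave the same picture, with a median of −0.22. Of its 7 subunits 5 were called lower and none higher, where 25.6% of all genes tested fell and 23.0% rose. Psmb2, a non-catalytic subunit, had 107, 102 and 98.3 CPM in AMLE, against 128, 127 and 127 CPM in DMSO, and had the largest fall of the ring (log2 −0.32 ± 0.05, edgeR adjusted p = 0.0015). The groups were separate in all 7 subunits, with AMLE lower, where 31.4% of all genes tested were separate in that direction. Psmb1 (−0.12 ± 0.05) and Psmb5 were the subunits not called. Together the 14 constitutive core genes summed to 1725, 1660 and 1624 CPM in AMLE, against 1918, 1959 and 1965 CPM in DMSO, a change of −14.2% in the mean sum. Of these 14 genes, 0 were called higher with edgeR, DESeq2 or limma-voom, and 0 were higher at an unadjusted p under 0.05.

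The regulatory particle showed lower levels than in DMSO in both of its parts. All 6 ATPases, the motors that unfold substrates, fell (25.6% of all genes tested fell), with a median of −0.38. Psmc3 had 123, 119 and 119 CPM in AMLE, against 180, 177 and 176 CPM in DMSO, and fell 1.47-fold (log2 −0.56 ± 0.04, edgeR adjusted p = 1.1e-04), the largest fall of any core or regulatory particle subunit. Psmc1 had 105, 103 and 105 CPM in AMLE, against 137, 134 and 137 CPM in DMSO (log2 −0.39 ± 0.04, edgeR adjusted p = 3.5e-04). Psmc4, at −0.24 ± 0.07, fell least and its call was lost in 3 of 12 settings.

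Of the 11 other regulatory particle subunits 9 fell (81.8%, against 25.6% of all genes tested) and 2 were not called, with a median of −0.42. Psmd3, a scaffold subunit of the lid, had 103, 95.3 and 94.9 CPM in AMLE, against 141, 147 and 137 CPM in DMSO (log2 −0.54 ± 0.05, edgeR adjusted p = 2.6e-04). Psmd12, another lid scaffold, had 52.7, 53.7 and 49.3 CPM in AMLE, against 74.8, 74.5 and 75.9 CPM in DMSO (log2 −0.53 ± 0.05, edgeR adjusted p = 2.3e-04). Psmd14, the deubiquitinase that strips ubiquitin from substrates, fell by 0.50 on the log2 scale, and Psmd1, which scaffolds the base, by 0.49. In each of these 4 genes the groups were far apart relative to the spread of the libraries.

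The exceptions were Psmd4 and Psmd8. Psmd4, a ubiquitin receptor, had 138, 143 and 137 CPM in AMLE, against 141, 142 and 138 CPM in DMSO (log2 −0.01 ± 0.04, edgeR adjusted p = 0.89). Psmd8, a lid subunit, had 185, 174 and 191 CPM in AMLE, against 190, 194 and 200 CPM in DMSO (log2 −0.09 ± 0.05, edgeR adjusted p = 0.20). They were the members of the core and regulatory particle, 31 genes in all, whose groups overlapped. The 17 regulatory particle genes summed to 1853, 1821 and 1827 CPM in AMLE, against 2314, 2319 and 2306 CPM in DMSO, a change of −20.7% in the mean sum. No regulatory particle gene was called higher by edgeR, DESeq2 or limma-voom or had a higher level at an unadjusted p under 0.05.

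**Figure D4:**
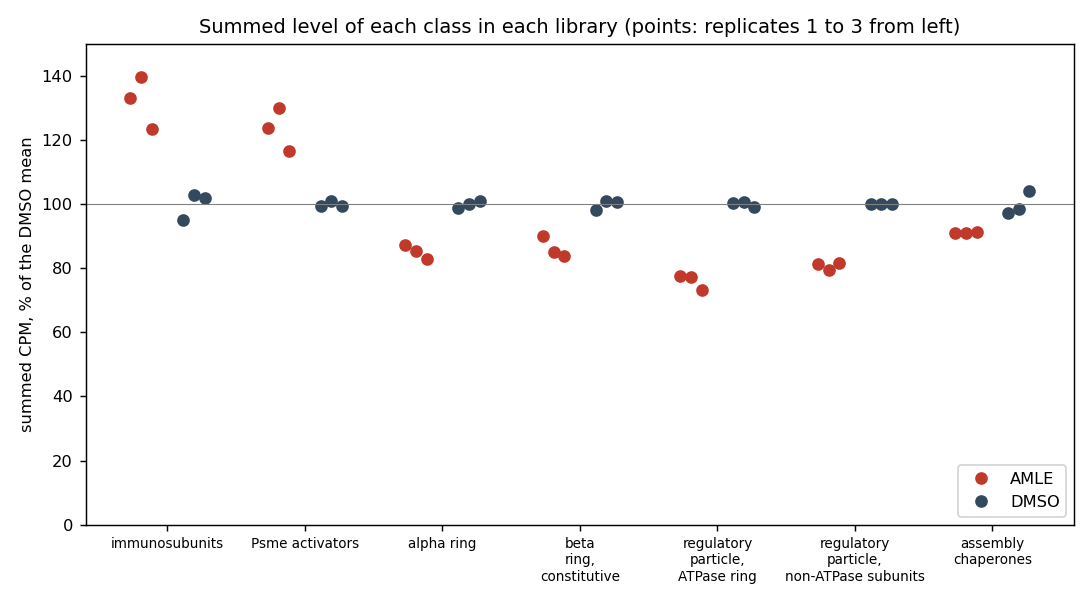
Summed CPM of each class in each library as a percentage of the DMSO mean of that class (AMLE left, DMSO right). The immunosubunits lie at 124% to 140% in AMLE and the Psme activators at 117% to 130%, while the ATPase ring lies at 73.4% to 77.7% and the constitutive beta ring at 83.9% to 90.0%.

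The sums show how the small set and the large set balanced. The 3 immunosubunits summed to 566, 594 and 525 CPM in AMLE, against 404, 436 and 433 CPM in DMSO, a mean sum 32.2% higher. Over all 49 members the sum was 5206, 5182 and 4989 CPM in AMLE, against 5543, 5635 and 5623 CPM in DMSO, a change of −8.48% in their summed share of all counts. Sums weight each gene by its abundance and transcript length, and the immunosubunit sum is mostly Psmb8.

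Assembly chaperones build the rings and leave the finished particle. Of 7 members 5 fell (71.4%, against 25.6% of all genes tested) and 1 rose (14.3%, against 23.0%). Psmg1, which pairs with Psmg2 to nucleate the alpha ring, had 11.4, 11.8 and 10.9 CPM in AMLE, against 17.5, 18.5 and 17.8 CPM in DMSO. It fell 1.58-fold (log2 −0.66 ± 0.07, edgeR adjusted p = 3.2e-04), and Psmg2 fell by 0.44 on the log2 scale. Psmg4 went the other way, with 24.7, 26.9 and 23.3 CPM in AMLE, against 18.1, 17.5 and 18.1 CPM in DMSO. It rose 1.40-fold (log2 0.48 ± 0.07, edgeR adjusted p = 0.0014), whereas Psmg3, with which its protein forms a dimer, fell (log2 −0.28 ± 0.06, edgeR adjusted p = 0.0087). The groups did not overlap in any of these 4 genes. Over all genes tested, AMLE lay wholly below DMSO in 31.4% and wholly above in 28.4%.

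Of the chaperones of the regulatory particle base, Psmd9 (−0.32) and Psmd5 (−0.22) fell. Psmd10, which encodes gankyrin, had 34.8, 33.2 and 39.3 CPM in AMLE, against 29.8, 29.0 and 35.9 CPM in DMSO, with replicate 3 highest in each group. It was not called (log2 0.18 ± 0.10, edgeR adjusted p = 0.18), but with the replicate number as a block it was (0.18, edgeR adjusted p = 0.023).

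The inhibitor Psmf1 had 43.2, 44.1 and 40.3 CPM in AMLE, against 37.7, 38.1 and 34.7 CPM in DMSO. The groups did not overlap and it rose 1.16-fold (log2 0.21 ± 0.06, edgeR adjusted p = 0.028), a call lost when any 1 of the libraries other than AMLE replicate 3 was left out (adjusted p up to 0.082). Psma8 was barely detected, with 11, 38 and 29 counts in AMLE, against 17, 39 and 37 counts in DMSO, and was not called. Psmc3ip, the recombination cofactor, had 2.14, 2.22 and 1.95 CPM in AMLE, against 7.60, 6.07 and 7.20 CPM in DMSO, and fell 3.30-fold (log2 −1.72 ± 0.14, edgeR adjusted p = 1.4e-04).

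Genes that act with the proteasome but carry other symbols were described from lists of names. Of 8 measured subunits and partners 5 fell and none rose, where 25.6% of all genes tested fell and 23.0% rose. The median of the 8 was −0.23, with 0 higher at an unadjusted p under 0.05 with edgeR and 0 called higher by DESeq2 or limma-voom. Uchl5 (log2 −0.73 ± 0.06) and Usp14 (−0.55 ± 0.04), the deubiquitinases bound to the particle, fell most, and the ubiquitin receptor Adrm1 fell by 0.24 on the log2 scale. Pomp, the chaperone that completes the core and is needed for the immunoproteasome, averaged 117 CPM in AMLE and 110 CPM in DMSO and was not called (log2 0.09 ± 0.05, edgeR adjusted p = 0.18). Among 20 ubiquitin genes and shuttle factors 5 fell, 2 rose and 13 were not called (median −0.01), where 25.6% of all genes tested fell and 23.0% rose, so the share that fell was near that of all genes. Rad23b, a shuttle that brings ubiquitylated proteins to the proteasome, fell (log2 −0.43 ± 0.04, edgeR adjusted p = 3.1e-04), while Ubb was not called.

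Among 14 transcriptional regulators 9 rose, 2 fell and 3 were not called. Over all genes tested 23.0% rose and 25.6% fell. The median of the 14 was 0.37. Irf8, a dendritic cell interferon regulatory factor, averaged 804 CPM in AMLE and 218 CPM in DMSO (log2 1.88 ± 0.10). Irf1, an activator of the immunosubunit genes, averaged 193 CPM in AMLE and 115 CPM in DMSO (log2 0.75 ± 0.05, edgeR adjusted p = 6.7e-05). Nlrc5, the class I transactivator, also rose (log2 0.47). Nfe2l1, which encodes NRF1, the factor that drives proteasome genes when proteasomes are inhibited, averaged 352 CPM in AMLE and 270 CPM in DMSO and rose (log2 0.38 ± 0.07, edgeR adjusted p = 0.0032). These are RNA levels, and NRF1 is regulated largely by processing of its protein.

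Of 11 genes that trim, carry or present the peptides 8 rose, 2 fell and 1 was not called. Over all genes tested 23.0% rose and 25.6% fell. The median of the 11 was 0.47. Tapbpl (0.81 ± 0.05), a peptide editor, and H2-K1 (0.64 ± 0.07), a class I heavy chain, rose most. Tap1 averaged 181 CPM in AMLE and 129 CPM in DMSO (log2 0.49 ± 0.06, edgeR adjusted p = 7.2e-04), close to the change of Psmb9 (0.48 ± 0.06). Their RefSeq starts lie 226 bases apart on opposite strands of chromosome 17, with Psmb8 in the same cluster. The cytosolic peptidases Lap3 (−0.49) and Tpp2 (−0.30), which trim or destroy proteasome products, fell.

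Open chromatin was compared at the start sites of the 41 members in the RefSeq table; Psmb1, Psmb2, Psmb7, Psmc3, Psmd3, Psmd7, Psmg2 and Psma8 are not in it. A peak lay within 500 bases of a start in all 4 ATAC libraries for 36 members (87.8%), against 66.4% of the 9981 genes with at least 60 counts and a listed start. Psma7, Psmc5 and Psme2b had no peak there in any library. Psmb10 had one in AMLE replicate 1 and in both DMSO libraries but not in AMLE replicate 2, and Psmg3 in replicate 1 of each group. The lists held 15805 and 15597 intervals in AMLE and 18460 and 19225 in DMSO; the part of list length in a missing peak was not tested. These counts of peaks were not tested between the groups. The members and all genes were not matched for RNA level, and its part in their shares with a peak was not tested.

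The start sites of all 6 members that rose had a peak in both groups. At Psmb9 the authors' fold enrichment of the peak was 13.9 and 13.0 in the AMLE lists and 12.9 and 12.9 in the DMSO lists. This peak was 954 to 1114 bases wide, with its summit between the starts of Psmb9 and Tap1. It cannot be assigned to 1 of these genes. At Psmb8 it was 4.42 and 5.49 in the AMLE lists and 5.62 and 5.51 in the DMSO lists, with the summit at −466 and −476 bases from the start in AMLE and at −129 and −482 in DMSO, of which only −129 lies inside the sequence shown above. At Psme1 it was 7.13 and 7.15 in the AMLE lists and 8.35 and 9.38 in the DMSO lists. At Psmg4 it was 6.69 and 8.80 in the AMLE lists and 13.7 and 9.86 in the DMSO lists, and at Psmf1 4.22 and 6.67 in the AMLE lists and 10.4 and 8.62 in the DMSO lists. At Psme2 the lower of the AMLE values was 15.5 and the higher of the DMSO values 14.0. These folds are the authors' values for single peaks in lists of different length, and a difference between the groups was not tested.

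Markers of dividing cells and of other cell types were compared in the same way, where 25.6% of all genes tested fell and 23.0% rose. All 10 cell division markers were lower, summing to 285 to 419 CPM in AMLE and 1325 to 1516 CPM in DMSO. Of 9 macrophage markers 5 fell and 1 rose, with sums of 1054 to 1768 CPM in AMLE and 1714 to 1989 CPM in DMSO. Of 9 neutrophil and granulocyte precursor markers 7 fell and 0 rose, with sums of 8731 to 12194 CPM in AMLE and 13427 to 21337 CPM in DMSO. The 8 mast cell and basophil markers, 4 of them higher, summed to 346 to 667 CPM in AMLE and 214 to 363 CPM in DMSO. The 6 eosinophil markers, 2 of them higher, summed to 1844 to 2433 CPM in AMLE and 1327 to 2036 CPM in DMSO. The macrophage, mast cell and eosinophil sums overlapped between the groups. The part of these markers in the fall of the constitutive proteasome genes and in the rise of the immunosubunits was not tested.

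Lymphocytes carry immunoproteasomes without induction, and the part of lymphocytes in the rise of the immunosubunits was not tested. The 9 lymphocyte markers summed to 124 to 147 CPM in AMLE and 84.3 to 94.8 CPM in DMSO. Most of this was Il7r (115 CPM in AMLE, 66.1 in DMSO), which rose. Cd3e, Cd3d and Cd3g, which define T cells, averaged at most 0.753 CPM in AMLE and 0.486 CPM in DMSO. Cd3e had 8, 55 and 9 counts in AMLE replicates 1 to 3, against 5, 8 and 0 in DMSO. Cd3d and Cd3g were also highest in AMLE replicate 2, the library with the highest Psmb8 and Psmb9. The natural killer gene Ncr1 averaged 0.036 CPM in AMLE and 0.012 CPM in DMSO. Of the B cell genes, Cd79a averaged 8.52 CPM in AMLE and 9.47 CPM in DMSO and Ms4a1 5.05 CPM in AMLE and 4.06 CPM in DMSO, with no call. Erythroid markers summed to at most 1.02 CPM in AMLE and 1.05 in DMSO, with 4 of 7 at 0 in all libraries, and stromal markers to at most 3.76 and 3.14. Of 8 heat shock genes, 7 of them tested, 2 fell and 0 rose, where 25.6% of all genes tested fell and 23.0% rose. The share that fell was thus near that of all genes. Their sums were 3574 to 4064 CPM in AMLE and 4547 to 4798 CPM in DMSO. The 2 that fell were Hspa8, at 1643 CPM in AMLE and 2219 CPM in DMSO, and Hsp90aa1. Hspa1a, Hspa1b, Dnajb1 and Hsph1 were not called.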

How the data were processed

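RNA was sequenced in 3 AMLE and 3 DMSO libraries and open chromatin in 2 and 2; groups and replicate numbers come from the titles. The authors deposited raw read counts per gene symbol from stranded poly(A) libraries, per the labels' protocols, and per-library ATAC peak lists with a fold enrichment (ratio) and a −log10 q for each summit. The submitters' processing notes name STAR 2.7.11b, MACS3 3.0.0a7 and build mm10; for the counting step, no tool, strand setting or annotation is given in the sources used here. Reads of the 14 members that overlap another RefSeq gene (among them Psme1 with Emc9, Psmf1 with Tmem74b and Psmc3ip with Mlx) or that have near-identical copies could therefore be misassigned.

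Counts were tested with edgeR 4.0.16 in R 4.3.3 (TMM factors, minimum count 10 by group, robust quasi-likelihood F test, two-sided, Benjamini-Hochberg over 13075 genes); all 49 members passed the filter. The test was tested on simulated data first. SE is the absolute log2 change over the square root of F. Alternatives used DESeq2 1.42.0 and limma 3.58.1. Count ratios used a pseudocount of 0.5. Start sites and sequences are from RefSeq GRCm38.p6. Older symbols matched Sem1, Ecpas and Ufd1 of the lists, and Paaf1 and Ly6g were not analysed here. No label states whether replicates are separate mice or cultures; the p-values then reflect spread among these libraries alone, possibly technical. Libraries with the same replicate number deviated together (correlations of deviations from the group means 0.273, 0.268 and 0.414 for numbers 1 to 3), so the block fit is given where it changes a call. Named genes were the immunosubunits, their partners, the Psme genes and Psmf1, the 2 called members of largest change per other class and list, and called members against their class; other names were chosen after their values were seen. Members and lists were chosen with earlier results of these data known. Peak overlap counted any shared base. Some genes of the lists that the rule would name are not reported here by name; they are in the lists' counts and medians.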

Additional observations from a re-analysis of the deposited data

How the results depend on the processing

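Across 12 alternative settings (DESeq2, limma-voom, upper-quartile factors, no low-count filter, a replicate block, each library left out, both libraries numbered 3 left out), 5 to 7 members rose and 29 to 33 fell. Over all genes tested in each setting, 2263 to 3436 rose and 2666 to 3813 fell. Of 39 called members 34 were called in every setting and 5 were lost in at least 1: Psma3, Psma7, Psmc4, Psmd11 (in 6 settings) and Psmf1. No call was in the other direction. Psmb8, Psmb9, Psme1, Psme2 and Psme3 were called in all 12, and Psmb10, Psmb5 and Psme4 in none. Psmd10 was the uncalled member that passed in some settings: 2 assembly chaperones rose with the replicate block, when both libraries numbered 3 were left out and without DMSO replicate 3, and 1 to 2 over all fits that left out 1 library. The block changed no other member's call.

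With 1 library left out, the log2 ratio difference ran from 0.49 to 0.64 for Psmb8 over Psmb5, from 0.65 to 0.77 for Psmb9 over Psmb6 and from 0.29 to 0.36 for Psmb10 over Psmb7. Within replicate numbers (replicate block) the differences were 0.58, 0.72 and 0.33, each with p = 0.25 in an exact sign-flip test, the smallest that 3 pairs allow. Upper-quartile factors moved the median over all genes from −0.01 to 0.03 on the log2 scale. Members with a peak at the start in all 4 ATAC libraries numbered 31 with a −log10 q of at least 5 and 36 or 37 with other windows or summits.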
